A study of Drosophila melanogaster with 4 samples.

Results

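Chromosome 4 of *Drosophila melanogaster*, the dot chromosome, is described here gene by gene in S2R+ cells with and without the intronic enhancer of *Notch*. Its genes were chosen by 2 criteria, an annotation on chromosome 4 of the dm6 genome and at least 10 estimated read counts in each of the 4 libraries, and 72 of the 85 chromosome 4 genes with a transcript in the quantification met them, out of 13909 genes in all. These 72 genes comprised 71 protein-coding genes and 1 pseudogene, and all 72 were among the 8182 genes tested. S2R+ is an adherent male line derived from late embryos and related to blood cells. The wild-type group held 2 libraries of the unmodified line. The enhancer mutant group held 2 libraries of a CRISPR line, homozygous for the deletion of the enhancer in an intron of *Notch* on chromosome X and grown from a single clone, so that the deletion and other features of that clone cannot be told apart. The paper describes the same culture medium for the line in general, names no treatment before RNA extraction, and sequenced total RNA. The mutant line alone is described as transfected with CRISPR plasmids, selected with puromycin and cloned in conditioned medium before its expansion. This earlier handling is among the features of the clone that cannot be told apart from the deletion.

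The dot chromosome is the smallest of the fly chromosomes. Much of it is packaged as heterochromatin, with histone H3 methylated at lysine 9 and bound by heterochromatin protein HP1a, yet many of its genes are expressed in most tissues at levels like those of genes elsewhere. In flies, the methyltransferase Setdb1, encoded by *eggless* (*egg*), places much of this methylation, and the protein POF, encoded by *Pof*, binds the chromosome and raises the output of its genes. The chromosome carries unrelated kinds of genes side by side, among them the Hedgehog effector *cubitus interruptus* (*ci*), the Wingless effector *pangolin* (*pan*), the eye selector genes *eyeless* (*ey*) and *twin of eyeless* (*toy*), and housekeeping genes such as *RpS3A* and *ATPsynbeta*.

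The libraries held between 16240543 and 19410313 estimated counts for wild-type and between 24880286 and 29605002 for the mutant, and chromosome 4 took 1.14% to 1.25% of them in wild-type against 1.40% to 1.48% in the mutant. *Notch*, the gene whose enhancer was removed, fell from 160 and 126 CPM to 38.1 and 35.3 CPM (log2 fold change −1.96 ± 0.13, standard error, edgeR adjusted p = 9.46e-07). CPM here are estimated counts relative to library size after TMM scaling, which sets the libraries to a common level over most genes. Of the blood cell markers, *srp* was detected (251 to 322 CPM in all libraries), whereas *NimC1* had at most 2 counts in any library. *Pxn* rose (91.5 and 98.8, then 129 and 121 CPM, edgeR adjusted p = 0.00677). *He* rose from near 0 (0.20 and 0.06, then 1.11 and 0.70 CPM, edgeR adjusted p = 0.00458). *Hml* fell (9.09 and 6.05, then 2.33 and 2.05 CPM, edgeR adjusted p = 0.000276). Muscle *Mhc* and *Act88F* had at most 3 counts, *vas* of the germ line had 6 to 9 counts, and the neuronal gene *elav* was detected at 45.7 to 63.0 CPM while *nSyb* stayed below 1 CPM.

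On the TMM scale, most chromosome 4 genes were more abundant in the enhancer mutant. The median log2 fold change over the 72 genes was 0.41, a factor of 1.33, with quartiles of 0.07 and 0.58, and 54 genes lay above 0. The median over all 8182 tested genes was −0.0037, and the medians of the arms 2L, 2R, 3L, 3R and X ranged from −0.06 to 0.04. The spread of the 72 genes, an interquartile range of 0.51, was somewhat below that of all tested genes (0.64) and of those arms (0.62 to 0.70). Since chromosome 4 was selected with its shift known, these medians are a description and carry no test.

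Of the 72 genes, 27 were called higher in the mutant (37.5%) and 8 lower (11.1%), where a call required an edgeR adjusted p below 0.05 and a log2 fold change of at least 0.5 in either direction. Over all tested genes, 12.6% were called higher and 15.3% lower. A further 13 chromosome 4 genes passed the p threshold with a smaller rise, and none with a smaller fall. For 49 of the 72 genes both mutant libraries lay above both of wild-type (68.1%, against 37.7% of all tested genes) and below them for 11 (15.3%, against 37.9%), and for 12 genes the conditions overlapped. With 2 libraries per condition, the smallest p that an exact permutation test allows for 1 gene is 0.333, and every p here comes from the model fitted across all genes. The paper describes RNA extraction in duplicate and 2 independent libraries for each condition. Neither the paper nor the labels say that the 2 libraries of a condition came from separate cultures. The p values then measure the spread between libraries, which may be technical. In bulk RNA, a change in RNA per cell and a change in the share of cells that express a gene cannot be told apart.

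The size of the shift depended on the scale, and its distance from the other genes did so much less. With library sizes alone in place of TMM factors, the median over all tested genes was −0.199 and that of the chromosome 4 genes 0.212, with 12 called higher and 9 lower. On the deposited TPM values, tested with limma as log2(TPM + 0.5), the median over all tested genes was −0.395. That of the chromosome 4 genes was −0.025, with 7 called higher and 9 lower. On TPM, 16 of the 72 genes had both mutant libraries above both wild-type libraries (22.2%, against 11.1% of all tested genes). More of the 72, 29 genes, had both mutant libraries below both wild-type libraries on TPM, as had 70.96% of all tested genes. Relative to the median of all genes, the chromosome 4 median was 0.41 higher in the TMM fit and 0.36 to 0.51 higher across all 17 alternatives, and 55 of the 72 genes lay above the median of all genes in the TMM fit, 55 with library sizes alone and 58 on TPM. A rise below is therefore a rise on the TMM scale, and for a gene near the common shift it corresponds to a log2 fold change near 0 on TPM.

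The shift was seen against either wild-type library. The median log2 ratio over the 72 genes was 0.39 for mutant library 1 and 0.27 for mutant library 2 against wild-type library 1, and 0.42 and 0.41 against wild-type library 2. The libraries of one condition also differed on this chromosome, with wild-type library 1 above wild-type library 2 for 52 of the 72 genes (median log2 ratio 0.16, against −0.003 over all tested genes) and mutant library 1 above mutant library 2 for 48 (median 0.1). Across the 72 genes, the difference between the wild-type libraries went with transcript length (Pearson r = 0.57, Spearman coefficient 0.59). That between the mutant libraries did so too (r = 0.33, Spearman 0.45), whereas the fold change between conditions did not (r = 0.06, Spearman 0.02). The coefficients describe a spread over genes, not over replicates, and the part of length in the result was not tested.

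**Figure D1:**
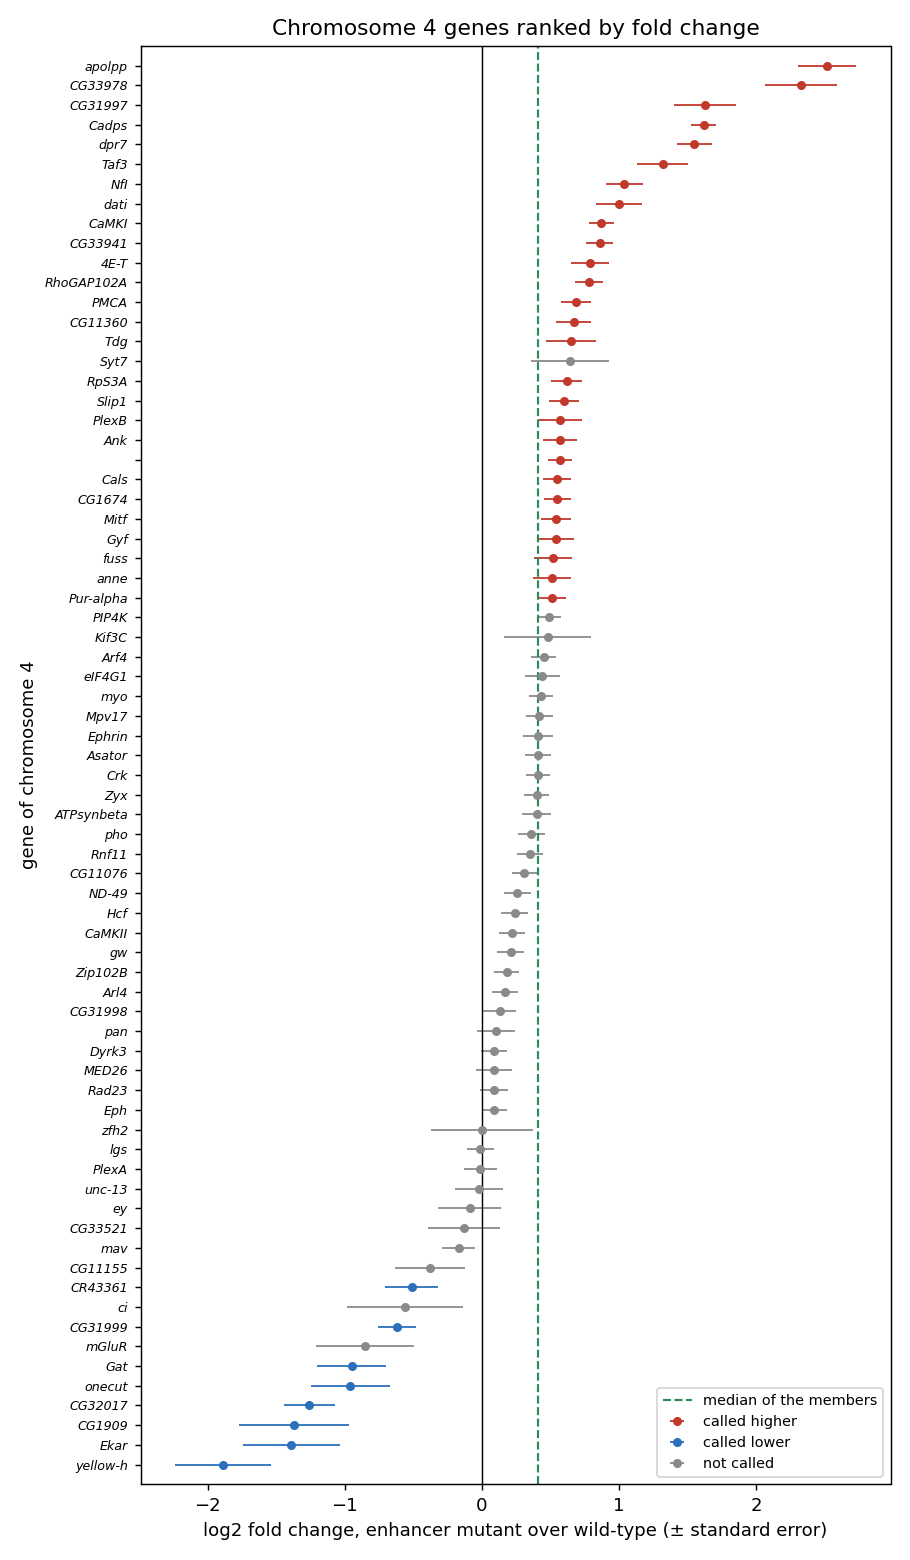
The log2 fold change of each of the 72 chromosome 4 genes (horizontal axis, TMM scale) with its standard error as a bar, with 1 gene left unlabelled, ranked from the lowest (*yellow-h*, −1.89) to the highest (*apolpp*, 2.52). The dashed line is the median of 0.41, and 34 of the 72 genes lie within 0.25 of it on this scale, a cluster that sits near 0 on TPM, where the median is −0.025.

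The genes departed from the common shift mainly where expression was low. Within 0.25 of the median lay 34 genes, within 0.5 lay 51 and within 1 lay 59, with 5 genes more than 1 above it and 8 more than 1 below it. Among the 47 genes with a mean of at least 50 CPM, 44 lay above 0, 30 lay within 0.25 of the median, 19 were called higher (40.4%) and none was called lower, beside 13.9% higher and 6.86% lower over all tested genes of that level. The lowest of these 47 was −0.02. Among the 25 genes under 50 CPM the median was −0.13, with 8 called higher and 8 lower (32.0% each), beside a median of −0.09, 11.6% higher and 22.3% lower over all 4480 tested genes of that level.

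In narrower classes, chosen after the values were seen, the 18 chromosome 4 genes under 10 CPM had a median log2 fold change of −0.45, next to −0.46 over all 1916 tested genes under 10 CPM. The 15 genes from 10 to 100 CPM had a median of 0.54, against 0.03 over 4090 tested genes. The 39 genes of at least 100 CPM had a median of 0.41, against 0.09 over 2176 tested genes. The weakly expressed genes of chromosome 4 thus had a median like that of all weakly expressed genes, but these 2 sets were filtered differently. The minimum of 10 counts per library held for the 18 genes and was not applied to the 1916. It left out *toy* (−1.54) and *bt* (−1.74), which were tested, so the closeness of the 2 medians depends on that minimum. The moderately and strongly expressed genes of chromosome 4 had a higher median than all tested genes of their level. The classes under 10 and from 10 to 100 CPM hold fewer than 20 chromosome 4 genes each, and with both left out the median over the remaining 39 is that of the whole set.

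**Figure D2:**
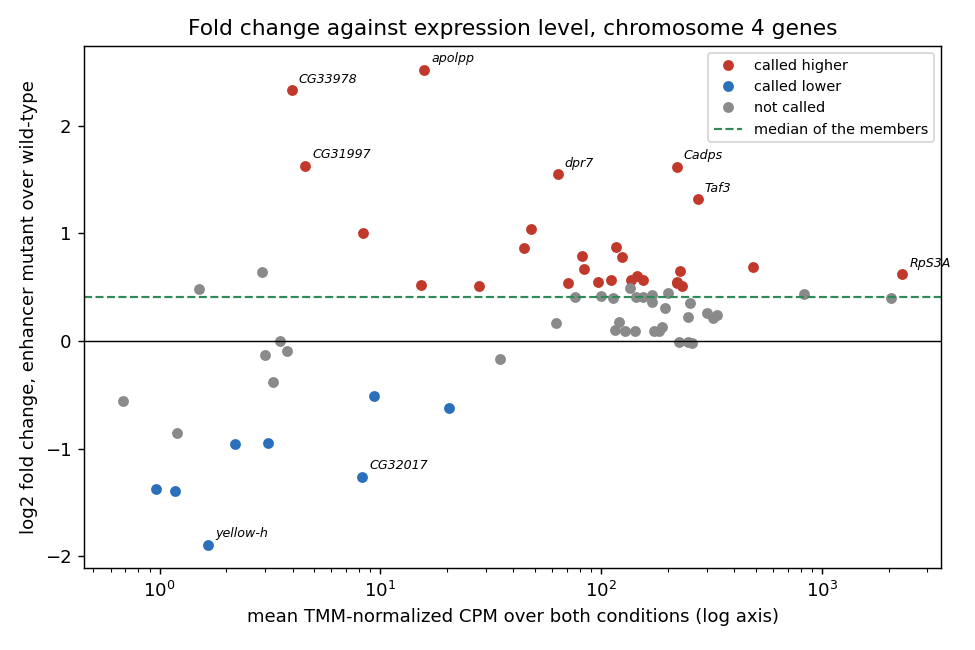
The log2 fold change of each of the 72 genes (vertical axis, TMM scale) against its mean CPM over both conditions (horizontal log axis), coloured by call, with the median of 0.41 as a dashed line. The 8 genes called lower all lie under 50 CPM, and above 50 CPM the genes form a band with a floor at −0.02.

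The genes nearest to the common shift were taken among those with a mean of at least 50 CPM. The 5 nearest were *Crk*, an adaptor protein that links phosphorylated receptors to downstream signalling, *Ephrin*, the membrane-bound ligand of the Eph receptor, *Asator*, a tau-tubulin kinase family member found at the spindle, *Zyx*, a LIM domain protein of focal adhesions, and *ATPsynbeta*, the catalytic subunit of the mitochondrial ATP synthase. *Crk* measured 124 and 123 CPM in wild-type against 158 and 169 CPM in the mutant (log2 fold change 0.41 ± 0.09). *ATPsynbeta* measured 1765 and 1773 CPM in wild-type against 2321 and 2350 CPM in the mutant (0.40 ± 0.10). In both genes the mutant libraries lay above the wild-type libraries with little spread within a condition. *Asator* measured 67.2 and 63.3 CPM, then 89.6 and 84.0 CPM (0.41 ± 0.09), and *Zyx* 97.5 and 98.0 CPM, then 131 and 127 CPM (0.40 ± 0.09). *Ephrin* varied more in wild-type, with 149 and 119 CPM against 176 and 179 CPM in the mutant (0.41 ± 0.11). The edgeR adjusted p of these 5 genes lay between 0.00387 and 0.0121, and none reached the log2 fold change of 0.5 needed for a call. On TPM all 5 lay between −0.05 and −0.02, that is, at the common shift again.

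The most abundant transcripts per unit of length, by mean TPM, came from *RpS3A*, *ATPsynbeta*, *Arf4*, *Mpv17* and *ND-49*. *RpS3A*, a protein of the small ribosomal subunit, measured 1924 and 1722 CPM in wild-type against 2736 and 2862 CPM in the mutant and was called higher (log2 fold change 0.62 ± 0.11, edgeR adjusted p = 0.00124), with a call in 12 of 15 alternatives and none with library sizes alone or on TPM. *Arf4*, a small GTPase of the Golgi formerly named *Arf102F*, measured 162 and 179 CPM, then 224 and 240 CPM (0.45 ± 0.09). The conditions did not overlap in either gene. *Mpv17*, from a family of mitochondrial inner membrane proteins, measured 83.3 and 87.6 CPM, then 109 and 120 CPM (0.42 ± 0.10). *ND-49*, a core subunit of respiratory complex I, measured 254 and 294 CPM, then 318 and 340 CPM (0.26 ± 0.10, edgeR adjusted p = 0.0534). *ND-49* thus rose less than the median and missed the p threshold, and on TPM it lay at −0.18, still above the median of all genes.

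Above the common shift, 8 genes stood out by a rule that ranks the departure from the median, and all 8 were called higher. Calls and separate conditions among genes ranked in this way, above or below the shift, follow largely from the ranking and are a description. The gene farthest above was *apolpp* (chromosome 4, 1060969 to 1077273, plus strand), which encodes the precursor of apolipophorin, the main lipid-carrying protein of the hemolymph. It measured 5.96 and 3.25 CPM in wild-type against 29.4 and 24.3 CPM in the mutant, a 5.75-fold rise (log2 fold change 2.52 ± 0.21, edgeR adjusted p = 7.29e-06). *CG33978* (157575 to 175639, minus strand) measured 1.56 and 1.03 CPM, then 6.74 and 6.50 CPM (2.33 ± 0.26, edgeR adjusted p = 6.33e-05). Its neighbour among the 72 genes, *CG31997* (154654 to 156060, minus strand), measured 2.15 and 2.28 CPM, then 6.27 and 7.5 CPM (1.63 ± 0.23, edgeR adjusted p = 0.000238). All 3 genes were low in wild-type and higher in both mutant libraries, and the nearest of the 72 genes on either side of the last pair, *anne* and *Arl4*, had log2 fold changes of 0.51 and 0.17.

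*Cadps* (1230837 to 1271759, plus strand), formerly *Caps*, encodes the calcium-dependent activator of dense-core vesicle release. It measured 109 and 106 CPM in wild-type against 324 and 338 CPM in the mutant (1.62 ± 0.09), and had the lowest adjusted p of the 72 genes, 3.05e-07 from edgeR. *dpr7*, which encodes an immunoglobulin domain protein of the cell surface, measured 27.6 and 37.2 CPM, then 92.9 and 96.1 CPM (1.55 ± 0.13, edgeR adjusted p = 6.72e-06). These are the largest rises among the genes of at least 50 CPM. *Taf3* (459887 to 466828, minus strand), formerly *bip2*, encodes a subunit of the general transcription factor TFIID. It measured 194 and 118 CPM in wild-type against 421 and 360 CPM in the mutant (1.32 ± 0.19, edgeR adjusted p = 0.000261), so that the wild-type libraries of this gene were themselves far apart.

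Both remaining genes of this group encode transcription factors. *NfI*, the fly member of the nuclear factor I family, measured 35.6 and 26.9 CPM, then 69.9 and 59.0 CPM (1.04 ± 0.13, edgeR adjusted p = 0.000143). *dati*, a zinc finger protein known for its part in female mating behaviour, measured 6.11 and 4.97 CPM, then 11.3 and 11 CPM (1.0 ± 0.17, edgeR adjusted p = 0.000858). For both genes the mutant libraries lay above the wild-type libraries. *apolpp*, *CG33978*, *CG31997*, *Cadps*, *dpr7*, *Taf3* and *NfI* were called higher in all 15 alternatives, and *dati* in all but the tests on TPM.

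Below the common shift, the 8 genes that stood out all had a mean under 50 CPM, and 7 of them were called lower. *yellow-h* (227922 to 230428, plus strand), a member of the *yellow* family, departed most. It measured 2.93 and 2.28 CPM in wild-type against 0.86 and 0.52 CPM in the mutant (log2 fold change −1.89 ± 0.35, edgeR adjusted p = 0.00145). *CG32017* (1137830 to 1162158, minus strand) measured 12 and 11.5 CPM, then 5.63 and 4.10 CPM (−1.26 ± 0.19, edgeR adjusted p = 0.000364). In both genes all mutant values lay below all wild-type values, and these were the only genes of the 8 called lower that kept the call in all 15 alternatives.

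*Ekar* encodes an ionotropic glutamate receptor of the kainate type that is enriched in the eye. It measured 1.76 and 1.66 CPM in wild-type against 0.72 and 0.57 CPM in the mutant (−1.39 ± 0.36, edgeR adjusted p = 0.00824). *mGluR*, the metabotropic glutamate receptor, measured 1.66 and 1.43 CPM, then 1.0 and 0.70 CPM (−0.85 ± 0.36), and was not called (edgeR adjusted p = 0.0714). *Gat*, which encodes a transporter of the neurotransmitter GABA, measured 3.86 and 4.28 CPM, then 1.90 and 2.31 CPM (−0.95 ± 0.25, edgeR adjusted p = 0.00997). In each of these 3 genes the mutant libraries lay below the wild-type libraries. The neuronal marker *elav* measured 63.0 and 54.2 CPM in wild-type against 45.7 and 47.7 CPM in the mutant (−0.33 ± 0.10, edgeR adjusted p = 0.0184). That fall is short of the log2 fold change of 0.5 needed for a call. *nSyb*, at 0.39 to 0.91 CPM, had a log2 fold change of −0.62 ± 0.44 (edgeR adjusted p = 0.268). Neither marker was called. Other genes of this chromosome with roles in neurons were called higher, among them *Cadps* (1.62) and *Cals* (0.55), and the part of these markers in the values was not tested.

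*onecut*, which encodes a homeodomain transcription factor of neurons, measured 3.03 and 2.74 CPM in wild-type against 1.25 and 1.74 CPM in the mutant (−0.96 ± 0.29, edgeR adjusted p = 0.0192). *CG1909* measured 1.52 and 1.26 CPM, then 0.43 and 0.65 CPM (−1.37 ± 0.40, edgeR adjusted p = 0.0162), from as few as 12 counts in a library. *CG31999*, the most abundant of the group, measured 28.2 and 21.6 CPM, then 17.1 and 15.2 CPM (−0.62 ± 0.14, edgeR adjusted p = 0.00405). The conditions did not overlap in any of them. The eighth gene called lower, the pseudogene *CR43361*, had a log2 fold change of −0.51 ± 0.19 at an edgeR adjusted p of 0.0477, close to both thresholds.

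Several of the lower calls changed with the setting. DESeq2 called 3 of the 72 genes lower, and *CR43361*, *CG1909*, *onecut*, *Ekar* and *Gat* were not among them. Without mutant library 1 the count was 3, without mutant library 2 or without wild-type library 1 it was 4, and without wild-type library 2 it was 8. The departure of each of the 16 genes from the median kept its sign in all 15 alternatives.

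**Figure D3:**
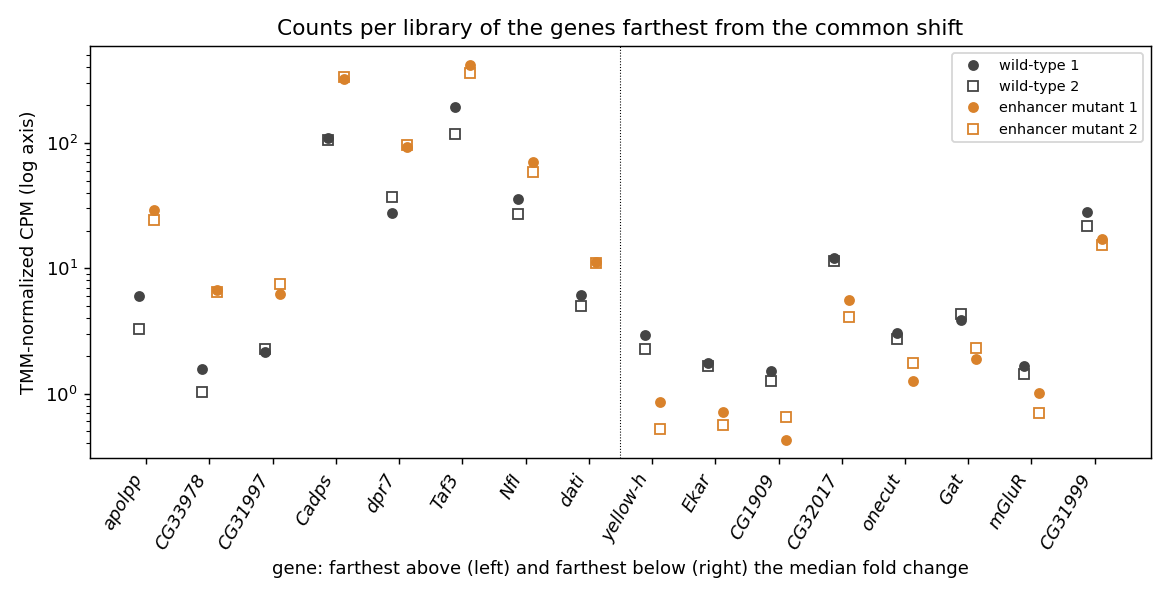
TMM-normalized CPM (vertical log axis) in each of the 4 libraries for the 8 genes farthest above (left of the dotted line) and the 8 farthest below (right) the median fold change, with wild-type in grey and the mutant in orange, replicate 1 filled and replicate 2 open. The conditions are separate in all 16 genes, from *apolpp* (5.96 and 3.25 against 29.4 and 24.3 CPM) to *CG31999* (28.2 and 21.6 against 17.1 and 15.2 CPM). The genes were picked by fold change in the same libraries, so their separation follows largely from the choice. Of all tested genes, 37.7% had both mutant libraries above both wild-type libraries and 37.9% had both below.

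Transcription factors and cofactors of chromosome 4 ranged from *onecut* (−0.96) to *Taf3* (1.32). Of 18 on the list, 14 were among the 72 genes, with a median log2 fold change of 0.30, 6 called higher, 1 lower (*onecut*) and 7 not called. Besides *Taf3*, *NfI* and *dati*, the higher calls were *Mitf*, the regulator of lysosomal genes (63.5 and 52.0 CPM in wild-type, then 87.3 and 81.1 CPM in the mutant, 0.54 ± 0.11), *fuss*, the fly homologue of the Ski and Sno family (0.52 ± 0.14), and *Pur-alpha*, a single-stranded nucleic acid binding protein (0.51 ± 0.10). Of all the genes called higher, *fuss* and *anne* kept the call in 8 of 15 alternatives, *Pur-alpha* and *Tdg* in 9, *Ank*, *PlexB* and *Gyf* in 10, and *Slip1*, *CG1674*, *Cals* and *Mitf* in 11. *anne*, *Tdg*, *Ank*, *PlexB*, *Gyf*, *Slip1*, *CG1674*, *Cals* and *Mitf* were among those not called without wild-type library 2, *fuss* without wild-type library 1, and *fuss*, *anne*, *Pur-alpha*, *Tdg*, *Ank*, *PlexB* and *Gyf* without mutant library 1.

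The effectors of the Wingless pathway on this chromosome differed little between conditions on the TMM scale. *pan*, the TCF protein that binds Wingless target genes, measured 129 and 92.9 CPM in wild-type against 125 and 114 CPM in the mutant (0.10 ± 0.14). *lgs*, the BCL9 homologue that joins Armadillo to its coactivator, measured 241 and 212 CPM, then 236 and 213 CPM (−0.01 ± 0.10), a departure of −0.42 from the median. The CPM of both genes overlapped between conditions. On TPM, where most tested genes were lower in the mutant, *lgs* was separate, with 41.2 and 38.6 in wild-type against 31.8 and 26.2 in the mutant. *pho*, which recruits Polycomb proteins to their DNA elements, measured 137 and 159 CPM, then 188 and 193 CPM (0.36 ± 0.10), close to the median, while *Hcf*, a cofactor of chromatin-modifying complexes, had 0.24 ± 0.10.

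The developmental regulators *ci* (0.88 and 0.74 CPM in wild-type, then 0.50 and 0.61 CPM in the mutant, −0.56 ± 0.42), *ey* (3.76 and 4.0, then 3.44 and 3.88 CPM, −0.09 ± 0.23) and *zfh2* (4.99 and 2.0, then 4.23 and 2.79 CPM, standard error 0.37) were barely expressed, and none of the 3 was called. They departed from the median of the 72 genes by −0.96, −0.49 and −0.41, with the same standard errors.

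The 5 genes of RNA metabolism and translation all lay above 0 (median 0.54, 0.21 to 0.79), with 3 called higher and none lower. Next to *RpS3A* these were *4E-T*, which binds eIF4E and holds messenger RNA in repressed particles (70.5 and 49.8 CPM in wild-type, then 105 and 103 CPM in the mutant, 0.79 ± 0.14), and *Gyf*, a GIGYF protein of translational repression (0.54 ± 0.13). The initiation scaffold *eIF4G1* measured 796 and 614 CPM, then 995 and 914 CPM (0.44 ± 0.13, edgeR adjusted p = 0.0162), and *gw*, the GW182 protein that silences microRNA targets, 308 and 288 CPM, then 363 and 326 CPM (0.21 ± 0.10, edgeR adjusted p = 0.0979). In all 5 genes the mutant libraries lay above the wild-type libraries.

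Ligands and receptors showed the lowest median of the lists, 0.04 over 8 of 9 listed genes, with 1 called higher, 1 lower (*Ekar*) and 6 not called. *PlexB* was called higher (105 and 72.2 CPM in wild-type, then 146 and 118 CPM in the mutant, 0.57 ± 0.16, edgeR adjusted p = 0.0139), whereas its relative *PlexA* measured 272 and 222 CPM, then 267 and 223 CPM (−0.01 ± 0.12). Both encode semaphorin receptors of axon guidance. The difference between these 2 receptor genes was not tested. The receptor gene *Eph* (179 and 174 CPM, then 196 and 181 CPM, 0.09 ± 0.09) moved less than its ligand gene *Ephrin* (0.41 ± 0.11), a difference that was not tested either. Of the TGF-beta type ligands, *myo* measured 141 and 148 CPM, then 191 and 198 CPM (0.43 ± 0.09, edgeR adjusted p = 0.00251), and *mav* 41.7 and 32.2 CPM, then 33.1 and 32.6 CPM (−0.17 ± 0.12).

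All 10 genes of intracellular signalling lay above 0 (median 0.43, 0.09 to 0.87), with 3 called higher and none lower. The calls were *CaMKI*, a calmodulin-dependent kinase (81.4 and 84.2 CPM in wild-type, then 152 and 151 CPM in the mutant, 0.87 ± 0.09, edgeR adjusted p = 3.74e-05), *RhoGAP102A*, a GTPase-activating protein (0.78 ± 0.10), and *Slip1*, a binding partner of the Slowpoke potassium channel (0.60 ± 0.11). *CaMKI* was called in 13 of 15 alternatives and missed only on TPM. *PIP4K*, a phosphoinositide kinase, just missed the fold threshold (0.49 ± 0.09, edgeR adjusted p = 0.00125), *Rnf11* had 0.35 ± 0.10, and *Arl4* (0.17 ± 0.10) and *Dyrk3* (0.09 ± 0.10) were the lowest of the list.

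The 4 genes of synapse and secretion had a median of 0.59, with *Cadps* and *Cals* called higher. *Cals*, which encodes calsyntenin, a cadherin of postsynaptic membranes, measured 193 and 166 CPM in wild-type against 268 and 257 CPM in the mutant (0.55 ± 0.10). *Syt7*, a calcium sensor of exocytosis, had few counts (2.25 and 2.34 CPM, then 4.30 and 2.79 CPM, 0.64 ± 0.28, edgeR adjusted p = 0.0857). *unc-13*, which primes synaptic vesicles, measured 318 and 200 CPM, then 278 and 234 CPM (−0.02 ± 0.18), with overlapping conditions and the wild-type libraries far apart.

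Of the 3 cytoskeletal genes, *Ank* was called higher and encodes ankyrin, which links membrane proteins to spectrin (139 and 110 CPM, then 201 and 170 CPM, 0.57 ± 0.12), while *Kif3C*, a kinesin, measured 1.32 and 1.2 CPM, then 1.94 and 1.57 CPM (0.48 ± 0.32). In metabolism and transport, 3 of 7 genes were called higher and 1 lower (median 0.40). *PMCA*, the calcium pump of the plasma membrane, measured 399 and 346 CPM in wild-type against 637 and 564 CPM in the mutant (0.69 ± 0.11, edgeR adjusted p = 0.000543). The zinc transporter gene *Zip102B* moved less (0.18 ± 0.09). On the list of DNA repair and protein turnover, *Tdg*, a thymine DNA glycosylase formerly named *Thd1*, was called higher (218 and 137 CPM, then 309 and 249 CPM, 0.65 ± 0.18) and *Rad23*, a nucleotide excision repair protein that brings cargo to the proteasome, was not (0.09 ± 0.10).

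Of the 19 genes in none of the lists, 7 were called higher, 5 lower and 7 not called (median 0.22). Next to those already described, *CG33941* (0.86 ± 0.10), *CG11360* (0.67 ± 0.13), *CG1674* (0.55 ± 0.10) and *anne* (0.51 ± 0.14) were called higher. Among those not called were *CaMKII*, the calmodulin-dependent kinase of synaptic plasticity (0.22 ± 0.09), and *MED26*, a subunit of the Mediator complex (0.09 ± 0.13). On TPM, the median of the lists of RNA and translation, signalling, synapse and cytoskeleton stayed above 0 (0.01 to 0.12) and that of the other lists fell below 0, while relative to the median of all genes every list stayed above (0.05 to 0.51).

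**Figure D4:**
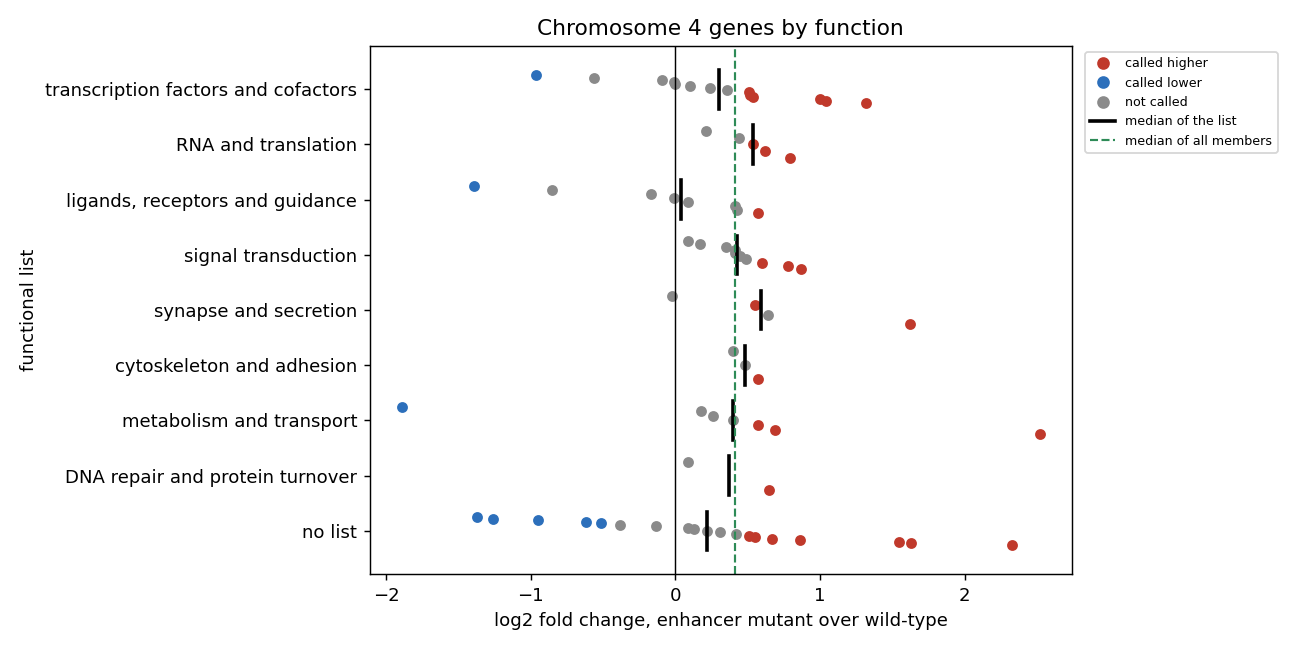
The log2 fold change (horizontal axis, TMM scale) of the 72 genes by functional list, coloured by call, with the median of each list as a black bar and the median of all 72 genes, 0.41, as a dashed line. List medians run from 0.04 for ligands and receptors to 0.59 for synapse and secretion on this scale and, on TPM, lie above 0 only for RNA and translation, signalling, synapse and cytoskeleton.

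Transcript forms shifted within a few of the genes. Of the 72 genes, 65 had at least 2 annotated forms in the quantification, and in 55 of them the form with the highest TPM was the same in both conditions. In 8 genes the share of some form differed by more than 10 percentage points between conditions without overlap, a limit chosen after the shares were seen. The same count was not made over genes of other chromosomes, so it describes these genes and sets nothing apart for chromosome 4. Shares are of the gene's summed TPM, were estimated by the quantification from reads that forms have in common, and were compared without a test.

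*CG11360* showed the clearest shift. Its form FBtr0310540 held 2.1% and 3.3% of the gene's TPM in wild-type against 28.7% and 30.0% in the mutant, or 23 and 24 estimated counts against 696 and 512. The form FBtr0310541 went from 60.2% and 57.7% to 40.0% and 41.6%. Both forms share the same coding exons, as does the third expressed form. FBtr0310540 starts with a first exon of 35 bases at 680270 to 680304, 9128 bases downstream of the start of FBtr0310541 at 671142. In TPM, FBtr0310540 went from 0.29 and 0.38 to 5.02 and 4.22, while FBtr0310541 measured 8.18 and 6.55, then 6.99 and 5.86. It was the only form of the gene with both mutant libraries above both wild-type libraries on the TPM scale.

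In *Eph*, FBtr0089082 fell in share from 65.2% and 69.5% in wild-type to 42.1% and 46.5% in the mutant, and FBtr0089084 went from 10.8% and 10.0% to 29.4% and 18.5%. In *4E-T*, the leading form FBtr0089233 went from 67.2% and 77.9% to 46.3% and 45.6%. In *PMCA*, FBtr0300554 went from 14.4% and 8.2% to 26.1% and 24.8%, while the leading form FBtr0300558 stayed between 50.6% and 53.4%. The annotated 3' ends of FBtr0300554 (328816) and FBtr0300558 (330856) differ, and both lie within the opposite-strand gene *Rnf11* (314923 to 331387). Reads from exons shared with *Rnf11* cannot be assigned with certainty, so this shift is uncertain. The conditions were separate in the named forms of *Eph*, *4E-T* and in FBtr0300554, and most of the forms of each of these 3 genes start at the same base. In *CG31999*, FBtr0089144 went from 63.8% and 68.4% to 53.0% and 52.9%. In *CG33978*, *CG1909* and *ey*, forms were listed at 0 in some libraries and their shares rested on few counts, such as FBtr0334300 of *CG33978* with 0 counts in both wild-type libraries against 116 and 64 in the mutant.

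**Figure D5:**
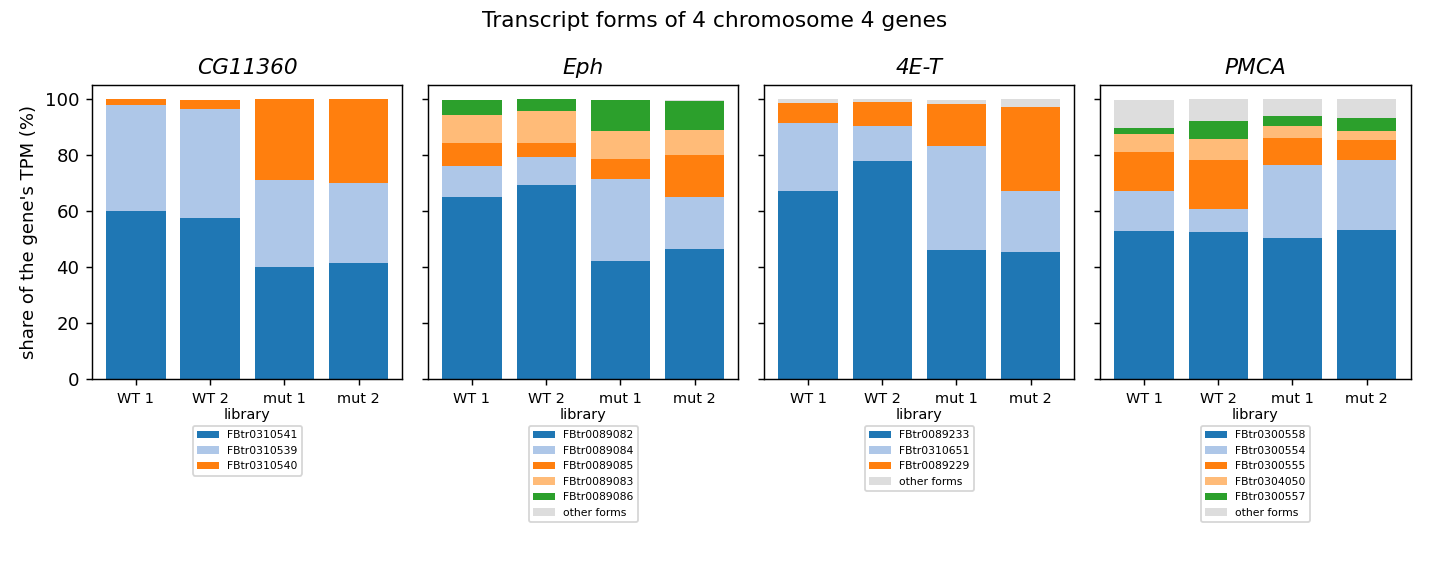
Shares of the summed TPM of *CG11360*, *Eph*, *4E-T* and *PMCA* held by each annotated transcript form (vertical axis, percent) in the 2 wild-type (WT) and 2 mutant (mut) libraries, with forms under 5% in every library pooled in grey. The form FBtr0310540 of *CG11360* grows from 2.1% and 3.3% to 28.7% and 30.0%. The shares of *PMCA* forms are uncertain where their exons overlap the opposite-strand gene *Rnf11*.

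Some of the genes overlap on opposite strands, and the counting was not stated to use strand, so reads from the shared exons cannot be assigned with certainty. There were 8 such pairs among the 72 genes. Of the exons of *CR43361*, 92.5% lie within exons of *unc-13*, and the pseudogene measured 12.9 and 9.13 CPM in wild-type against 8.49 and 6.93 CPM in the mutant where *unc-13* measured 200 to 318 CPM, so its call as lower is uncertain. *Rnf11* and *PMCA* share 56.1% and 40.5% of their exon bases, and *CG33941* shares 42.9% of its exon bases with *Asator*. *zfh2* and *Tdg* share 18.7% and 17.7%, and *CG33521* shares 9.6% of its exon bases with *PIP4K*. For *apolpp* the overlap with *Zyx* was 0.8% of its exon bases, and for *CG32017* that with *CG11155* was 2.1%.

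The 13 chromosome 4 genes that missed the minimum were low in every library. Since the minimum applies to each library, it leaves out genes that fell below it and genes that rose from below it. The genes just inside it were *yellow-h* and *CG1909* with a lowest library of 12 counts, *Ekar* and *ci* with 13, and *mGluR* with 16. Just outside lay *toy*, *sv* and *bt*. *toy*, the Pax6 gene upstream of *ey*, had 20 and 11 counts in wild-type against 7 and 7 in the mutant (log2 fold change −1.54 ± 0.50, edgeR adjusted p = 0.0253), and *bt*, which encodes the muscle protein projectin, had 10 and 8, then 4 and 3 counts (−1.74 ± 0.60, edgeR adjusted p = 0.0335). Both were tested and called lower, and with them the chromosome held 10 lower calls among 74 tested genes with a median of 0.404. *sv*, a Pax gene of sensory organs, had 6 and 13 counts, then 3 and 6. *Actbeta*, an activin ligand, had 11 and 3 counts in wild-type against 0 and 1 in the mutant, and *JYalpha*, a sodium pump subunit, 3 and 1, then 8 and 11. Neither was tested, and the remaining genes, 5 of them pseudogenes, had at most 7 counts in any library.

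A list of 21 chromatin regulators was drawn up by hand, and whether each of their proteins acts on chromosome 4 in these cells was not tested. Of these 21 tested genes, 2 were called higher, 1 lower and 18 not, beside 12.6% higher and 15.3% lower over all tested genes. Their log2 fold changes, in both directions, had a median of 0.01. *Pof* measured 28.6 and 31.2 CPM in wild-type against 35.4 and 31.7 CPM in the mutant (0.17 ± 0.10, edgeR adjusted p = 0.187). *egg* measured 96.6 and 101 CPM, then 103 and 97.3 CPM (0.02 ± 0.09), and the gene of HP1a 303 and 338 CPM, then 341 and 375 CPM (0.16 ± 0.10, edgeR adjusted p = 0.207). None of these 3 passed the test, and the values of *egg* overlapped.

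The 2 genes called higher were *Kdm4B*, a histone demethylase of H3 lysine 9 and lysine 36 (22.9 and 21.9 CPM, then 49.5 and 39.5 CPM, 0.99 ± 0.12, edgeR adjusted p = 9.52e-05), and *HP6*, of the HP1 family (6.35 and 5.82 CPM, then 11.5 and 14.3 CPM, 1.07 ± 0.17, edgeR adjusted p = 0.000535). The gene called lower was *wde*, the partner of Setdb1 (30.2 and 19.97 CPM, then 17.5 and 16.8 CPM, −0.55 ± 0.17, edgeR adjusted p = 0.0180). A further 4 passed the p threshold with smaller changes, *HP1b* (0.48) and *HP1c* (0.37) upward and *HP5* (−0.31) and *Hmt4-20* (−0.44) downward. The part of these genes in the chromosome 4 values was not tested.

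Position along the chromosome went with the fold change only weakly over the 72 genes (Pearson r = −0.07, Spearman coefficient −0.16), as did the number of annotated forms (r = 0.16, Spearman 0.2), and mean TPM on a log scale did so more (r = 0.33, Spearman 0.27). Genes above and below the shift stood side by side. *CG31999* (−0.62) and *yellow-h* (−1.89) are neighbours among the 72, between *Crk* (0.41) and *CG1674* (0.55), and *dpr7* (1.55) follows. From 583108 to 646556, the 6 genes *CG1909*, *onecut*, *Eph*, *mav*, *Gat* and *Ekar*, consecutive among the 72, had log2 fold changes of −1.37, −0.96, 0.09, −0.17, −0.95 and −1.39, all below the median, a stretch picked after its values were seen.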

How the data were processed

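Total RNA of 2 wild-type and 2 enhancer mutant S2R+ libraries was sequenced by the authors as paired-end reads of 150 bp on a HiSeq instrument. Per the paper's methods and the submitters' processing notes, transcripts were quantified with Salmon 0.10.2 against a dm6 transcriptome with GC bias correction, and the annotation release behind the index is not given in the sources used here. The authors deposited, for each of 30070 transcripts, an estimated count, which is not normalized, a TPM value, which is scaled to a fixed sum per library and corrected for length, and a length and effective length in bases.

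The Ensembl annotation of dm6 placed 29850 transcripts in genes, the other 220 held 0.23% to 0.292% of the counts of a library, and the estimated counts of a gene were added up, then rounded. The total was 19410313 and 16240543 estimated counts for wild-type and 29605002 and 24880286 for mutant libraries, so that the mutant values carry less counting error. Groups and replicate numbers came from the sample titles. Genes were tested with edgeR 4.0.16 in R 4.3.3 (filterByExpr, TMM, glmQLFit, glmQLFTest, Benjamini-Hochberg adjustment over 8182 genes), fitted on all genes, of which the chromosome 4 rows are printed. The standard error of a log2 fold change was derived from its F statistic. The limit of 0.5 follows the authors' fold-change limit, read here as a log2 value. The fit was tested on simulated data.

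The chromosome, its genes and the gene lists were chosen with earlier results of these data known. The genes named are the 8 farthest above and below the median, the 5 nearest to it with at least 50 CPM, the 5 with the highest TPM, the listed genes, the genes near the count minimum and the chromatin regulators. Other genes were named after their values were seen. DESeq2 1.42.0, limma 3.58.1 on log2(TPM + 0.5) or log2(TPM + 0.1), other scalings, filters, thresholds and member minimums, the replicate block and each library left out in turn were the alternatives. Hi-C, ChIP and qPCR data, and promoter sequences, were not analysed here. The values of 1 of the 72 genes are not reported here by name.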

Additional observations from a re-analysis of the deposited data

How the results depend on the processing

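The count of chromosome 4 genes called higher (27) was 12 with library sizes alone, 7 on TPM with either pseudocount, 17 at a change of at least 1.5-fold and 20 to 29 with 1 library left out. The count called lower (8) was 3 with DESeq2, 4 at a minimum of 50 counts per library and 3 to 8 with 1 library left out. The median log2 fold change (0.407) was 0.212 with library sizes alone, −0.025 on TPM with either pseudocount and 0.361 to 0.405 with 1 library left out. The genes with both mutant libraries above both wild-type libraries (49) were 16 on TPM, and those with both below (11) were 29. On TPM, *Crk* (−0.02), *Ephrin* (−0.02), *Asator* (−0.05), *Zyx* (−0.03), *ATPsynbeta* (−0.05) and *ND-49* (−0.18) reversed with either pseudocount, where the median of all genes itself was −0.395 or −0.429. All 35 called genes kept their sign in all 15 alternatives. The labels do not say whether same-numbered libraries share a culture or batch, and they were not treated as pairs. Deviations of same-numbered libraries correlated at 0.17 over all tested genes and at 0.471 over the 72, and a shared source was not tested. The replicate block gave 27 higher, 8 lower and a median of 0.409. Genes under 10 CPM are limited by depth, and 2 libraries per condition limit every standard error.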
